A study of Homo sapiens with 2 samples.

Results

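The 10 genes described here encode cell adhesion molecules: L1CAM, its relatives CHL1, NRCAM and NFASC, the other immunoglobulin-family molecules NCAM1, ALCAM, ICAM1 and MCAM, and the carcinoma surface molecules CD44 and EPCAM. They were followed in IGROV1-R10, a cisplatin-resistant line derived from the human ovarian carcinoma line IGROV1. One culture had been transfected with miR-491-5p and the other with a control miRNA, both as duplexes at 20 nM with the INTERFERin reagent 24 hours after seeding, and 100 ng of total RNA per culture was labelled for a whole-transcript array. Each group was therefore 1 array from 1 cell line, no untransfected culture was compared, and the sequence of the control miRNA was not given in the sources used here. The 10 genes were a named list, each represented by its probe set with the highest mean over both arrays, and all 10 were among the 22465 genes with a probe set of exactly 1 gene symbol. The list was chosen by family and function with the log2 differences between these arrays already known, so its values are a description.

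L1 family molecules span the membrane, bind each other or integrins outside the cell and ankyrins inside it, and are known from axon growth. L1CAM is also produced by many ovarian and endometrial carcinomas, where it is associated with motility, and its outer part is released by ADAM proteases. CD44 is the main receptor for hyaluronan and is tied to actin through ezrin, radixin and moesin, and EPCAM is a homophilic adhesion molecule of epithelia and carcinomas. A miRNA represses messenger RNAs through short sites, mostly in their 3' untranslated regions, that pair with its seed.

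The transfected miRNA is shown because its seed sets which messenger RNA sites it can pair with. Its RefSeq mature sequence (GRCh38.p14, chr9:20716120-20716141, plus strand) is 22 bases long and is printed with the seed, bases 2 to 8, in capitals. The hairpin that holds it (84 bases, chr9:20716105-20716188, plus strand) follows with the mature miRNA in capitals.
hsa-miR-491-5p: aGUGGGGAacccuuccaugagg
MIR491 hairpin: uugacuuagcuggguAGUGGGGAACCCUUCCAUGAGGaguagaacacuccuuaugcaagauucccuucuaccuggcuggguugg
The seed holds 5 G among its 7 bases, and the 7 bases that pair with it perfectly read UCCCCAC. No other mature miRNA in the RefSeq table has the same seed. Transcript sequences were not used here, so no site was looked for in any of the 10 messenger RNAs.

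Values are log2 signals as deposited, and differences were taken as miR-491-5p minus control, so that a difference of -1 is 2-fold lower. Genes were counted as above the signal filter if either array read at least 5.55, the median of all values on both arrays. This left 14373 genes, with a median difference of -0.07 and the middle 95% between -0.68 and 0.37. With 1 array per group there is no spread between cultures, so no p-value, standard deviation or interval is given. A difference caused by the miRNA cannot be told apart from any other difference between the 2 cultures or arrays. The epithelial markers EPCAM, KRT8, KRT18 and CDH1 and the ovarian markers PAX8, WT1 and MUC16 were all above the filter on both arrays, although MUC16 only just (5.94 against 5.89). Of 8 neural, endothelial, leukocyte and melanocyte markers, 1 passed (GFAP, 5.85 against 6.02).

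L1CAM had the largest difference of the 10 genes. It read 9.95 on the miR-491-5p array against 11.35 on the control array, a difference of -1.40 (2.64-fold lower). Of the 14373 genes above the filter, 29 had a difference as low or lower, L1CAM included (0.202%). L1CAM has 1 probe set with a single gene symbol, so no second probe set was available to set beside it. With the arrays centred on the median difference the value was -1.33, and after a loess correction on signal it was -1.32.

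The other L1 family members did not show a difference of that size. NRCAM, which acts in axon guidance and at nodes of Ranvier, read 6.98 against 7.23 (-0.25), 1.15 less in size than L1CAM. NFASC, the neurofascin of the same nodes, read 5.05 against 5.16 (-0.11), and CHL1, the close homologue of L1 known from developing neurons, read 4.89 on both arrays. NFASC and CHL1 lay below the filter on both arrays, so their small differences say little about transcripts that may be at or near background. Signal over background is unknown for these values. An antisense transcript named after CHL1, CHL1-AS1, was above the filter at 6.33 against 6.48 (-0.15), while CHL1-AS2 read 5.02 on both arrays.

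**Figure D1:**
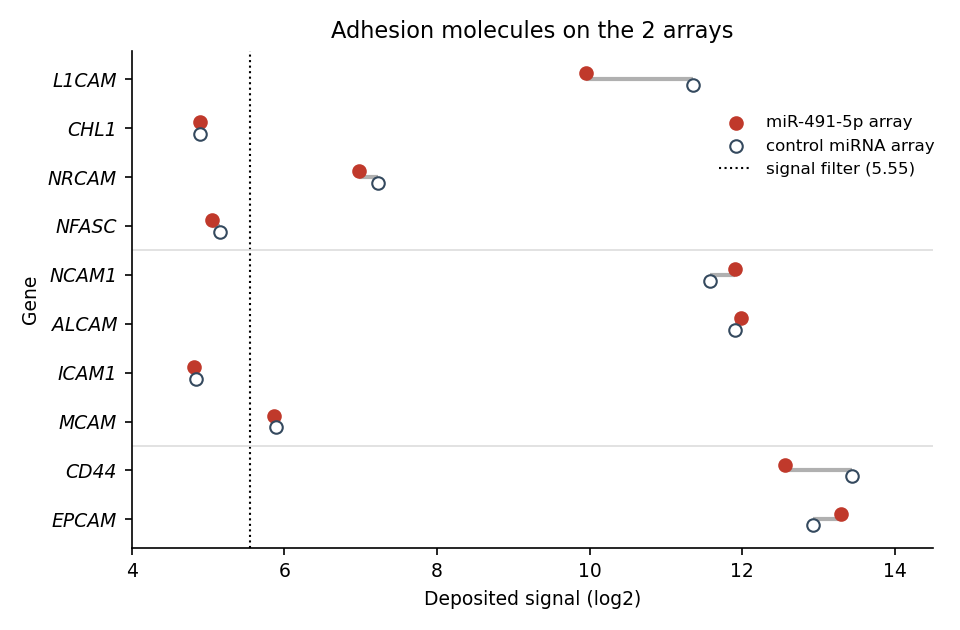
Deposited log2 signal (x axis) of the 10 genes (y axis), with filled points for the miR-491-5p array, open points for the control miRNA array and a dotted line at the signal filter of 5.55. L1CAM and CD44 show the widest gaps, with the miR-491-5p value lower, EPCAM and NCAM1 show the miR-491-5p value higher, and CHL1, NFASC and ICAM1 lie left of the filter. Signals of different genes come from different probes and are not to be ranked against each other.

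Among the remaining immunoglobulin-family molecules, none was lower to a comparable degree. NCAM1, the neural cell adhesion molecule, read 11.91 against 11.57, a difference of 0.34 (1.27-fold higher). A difference as high or higher was found in 449 of the genes above the filter (3.12%), and NCAM1-AS1, the transcript named as its antisense, was below the filter (5.35 against 5.31). ALCAM, also called CD166, which binds itself and the lymphocyte receptor CD6, read 11.98 against 11.90 (0.08).

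MCAM and ICAM1 were dim. MCAM, a molecule of endothelium and melanoma, read 5.86 against 5.89, just above the filter. Its difference of -0.03 became 0.04 with centred arrays and 0.05 after loess, so it has no settled sign. ICAM1, the cytokine-induced ligand of leukocyte integrins, read 4.82 against 4.84, below the filter on both arrays.

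CD44 and EPCAM, which both lie outside the immunoglobulin family, differed in opposite directions. CD44 read 12.56 against 13.43, a difference of -0.87 (1.83-fold lower), and 166 genes above the filter were as low or lower (1.15%). A second CD44 probe set read 8.63 against 9.35 (-0.72), so the 2 probe sets of the gene showed the same direction and a similar size. CD44-DT, a divergent transcript at the CD44 locus, was below the filter at 4.88 against 5.16. EPCAM read 13.29 against 12.93, a difference of 0.36 (1.28-fold higher), with 401 genes above the filter as high or higher (2.79%). The CD44 and EPCAM differences were 1.23 apart, and both kept their direction with centred arrays (-0.80 and 0.43) and after loess (-0.81 and 0.42).

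In all, 7 of the 10 genes were above the filter, each of them on both arrays, so the filter fixed none of their signs. One of the 7, L1CAM, was at least 2-fold lower, against 0.758% of all genes above the filter (109 genes). With CD44 added, 2 of the 7 were lower by 1.5-fold or more, against 3.62% of all genes (521 genes). None of the 7 was 1.5-fold higher, a size reached by 0.675% of all genes. The same difference between the arrays guided the choice of the 10 genes, so these counts are not read against those shares. The 10 differences had a median of -0.025 and ran from -1.40 to 0.36, and without L1CAM and CD44 they ran from -0.25 to 0.36. In a subset set after the values were seen, genes with a mean log2 signal of at least 10, as L1CAM, CD44, EPCAM, NCAM1 and ALCAM had, were at least 2-fold lower in 61 of 4380 cases (1.39%) and at least 1.5-fold lower in 235 (5.37%).

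**Figure D2:**
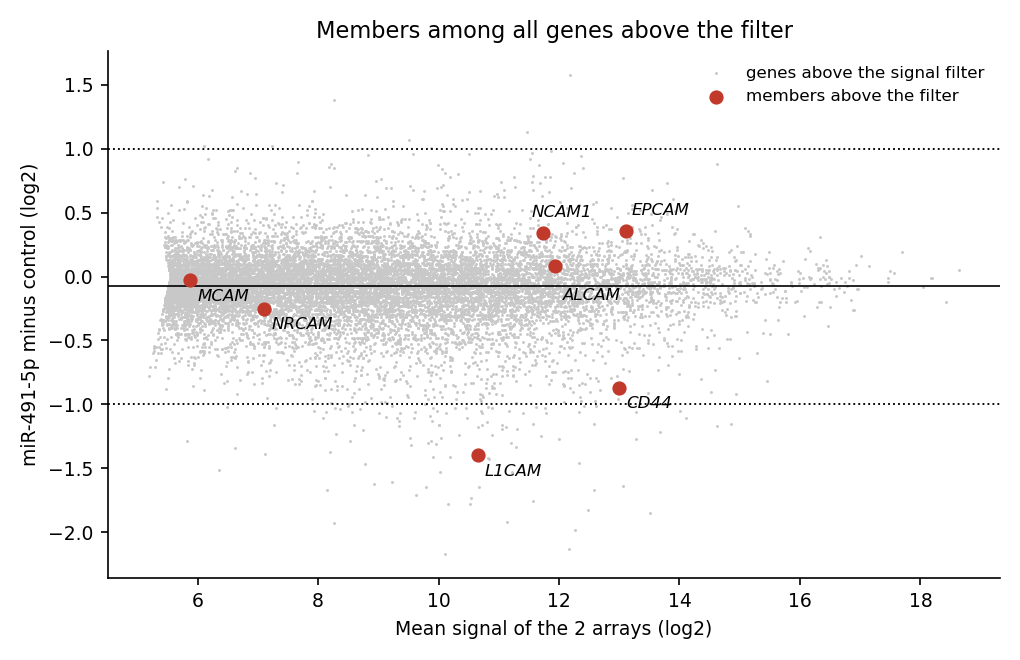
Difference between the arrays (y axis, miR-491-5p minus control, log2) against the mean signal of both arrays (x axis, log2) for the 14373 genes above the filter (grey) and the 7 adhesion genes among them (red), with dotted lines at 2-fold and a solid line at the median of -0.07. L1CAM at -1.40 lies past the lower 2-fold line and CD44 at -0.87 just inside it, while the other 5 lie between -0.25 and 0.36. These 5 are within the middle 95% of the genes (-0.68 to 0.37), with EPCAM and NCAM1 near its upper end.

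The genes next to L1CAM and CD44 on their chromosomes were looked up after the values were seen, in the order of protein-coding genes in RefSeq. Of the 3 on each side of L1CAM on the X chromosome, 5 of 6 were measured (NAA10 was not analysed here), and all 5 were above the filter with differences between -0.11 and -0.01. The next gene on one side, AVPR2, the vasopressin V2 receptor, read 6.51 against 6.57. Beyond it on the same side ARHGAP4, a GTPase-activating protein, read 6.48 against 6.50. On the other side the next gene, PDZD4, read 5.57 against 5.58. The brighter neighbours IDH3G and SSR4 read 13.13 against 13.24 and 8.12 against 8.18. None of the 5 came near the difference of -1.40 at L1CAM. PDZD4 lay only just above the filter, and ARHGAP4 and AVPR2 were also dim, so their small differences say less. Beside CD44 on chromosome 11, 4 of the 6 genes were above the filter, with differences between -0.33 and 0.57. EHF, an epithelial ETS factor, was the one that was higher, at 10.52 against 9.95 (0.57), and PDHX, a subunit of pyruvate dehydrogenase, read 10.76 against 10.98 (-0.22).

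**Figure D3:**
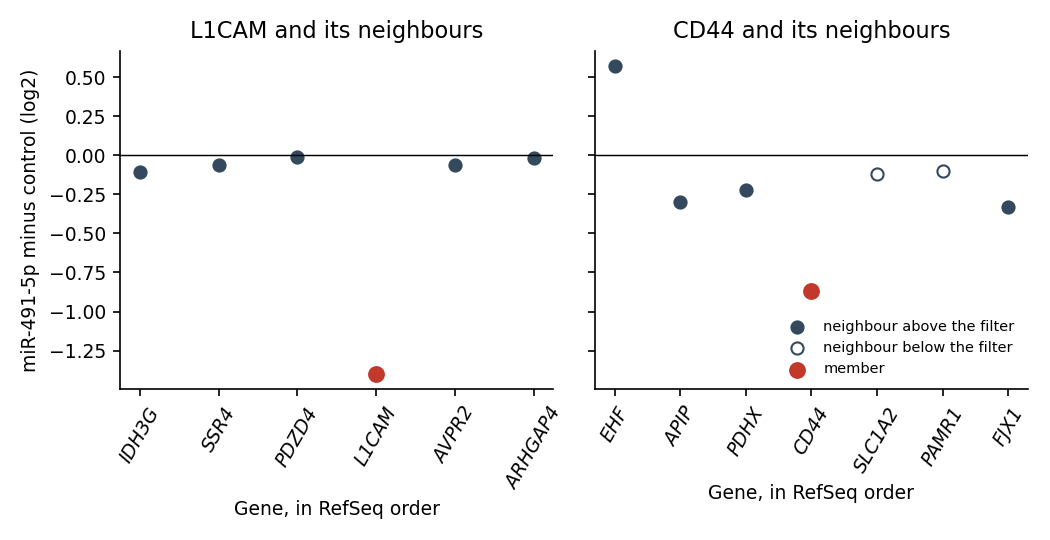
Difference between the arrays (y axis, miR-491-5p minus control, log2) for L1CAM and CD44 (red) and the measured protein-coding genes up to 3 places away on each side in RefSeq order (x axis), filled when above the signal filter and open when below it. The neighbours of L1CAM lie between -0.11 and -0.01, and those of CD44 above the filter between -0.33 and 0.57.

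Genes that work with these molecules were taken from 7 lists, of which some genes stand in more than 1. The lists hold 125 genes, 118 of them measured and 74 above the filter. Lower by 1.5-fold or more were 7 of the 74, and 3 of these passed 2-fold, while 0 were higher by 1.5-fold. The shares of all genes above the filter were 3.62%, 0.758% and 0.675% for these sizes, and 64.8% of all genes were below 0, beside 48 of the 74. The lists were drawn up with earlier results of these data known, so no list count here or below is read against those shares. Among the 48, STAB1, FYN, GFRA1 and ITGAX passed the filter only on the control array, so the filter fixed their negative sign. After centring or loess, 4 of the 7 genes stayed past 1.5-fold on the low side. The median of the 74 differences was -0.09, beside -0.07 over all genes above the filter.

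The binding partners and membrane anchors of L1CAM included EGFR, the lowest gene of the 7 lists. Of 18 above the filter, 13 were below 0, with a median of -0.135, and 4 were lower by 1.5-fold or more, of which 2 passed 2-fold (all genes 64.8% below 0, 3.62% and 0.758%). These counts are not read against the shares, because the list was drawn up with earlier results of these data known. EGFR, the epidermal growth factor receptor, which L1CAM can engage, read 9.67 against 11.40 (-1.73, 3.32-fold lower). MSN, or moesin, which links membrane proteins such as CD44 and L1CAM to actin, read 14.28 against 15.43 (-1.15, 2.22-fold lower). ITGA5, the fibronectin receptor subunit, read 10.09 against 10.77 (-0.68), and SEMA3A, a secreted guidance cue whose receptor complex includes neuropilin-1 and L1CAM, read 8.96 against 9.56 (-0.60). SEMA3A stood at -0.53 after either scaling, short of 1.5-fold.

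The other anchors and receptors of that list went both ways. They are named here after their values were seen. Ezrin (EZR), which acts beside moesin, read 15.49 against 15.61 (-0.12), and radixin (RDX) read 13.15 against 13.08 (0.07). The integrin subunits ITGB3, ITGAV and ITGB1, which serve as L1CAM receptors, differed by -0.54, -0.42 and -0.13, and 2 dimmer ITGB1 probe sets by -0.21 and 0.19. Of the ankyrins, which anchor the L1 family to the spectrin skeleton, ANK1 read 9.01 against 9.53 (-0.52), whereas ANK3 read 7.02 against 6.58 (0.44) and ANK2 8.22 against 8.06 (0.16). The neuropilin co-receptors NRP1 and NRP2 differed by -0.08 and 0.33.

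Genes of the CD44 list had a median of -0.12 over 15 above the filter, with 12 below 0. STAB1, among the 12, read 5.40 against 5.58 and passed the filter only on the control array, which fixed its sign. The shares of all genes were the same 64.8%, 3.62% and 0.758%, and the counts of this list are not read against them. Lower by 1.5-fold or more were 3 of the 15, and 2 passed 2-fold, moesin among these. NF2, which encodes merlin, a tumour suppressor related to moesin that binds the CD44 tail, was the other, at 10.53 against 11.71 (-1.18, 2.27-fold lower). KHDRBS1, the RNA-binding protein Sam68 that regulates CD44 splicing, read 11.84 against 12.45 (-0.61, and -0.54 after either scaling). ESRP2, an epithelial splicing regulator, read 9.61 against 10.09 (-0.48). The hyaluronan synthase HAS3 read 7.44 against 7.86 (-0.42), and HAS2 was below the filter.

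Genes that cleave adhesion molecules showed smaller differences. Of 11 sheddase and gamma-secretase genes above the filter, none was 1.5-fold lower or higher, and the median was -0.05. ADAM17, which sheds L1CAM and other surface proteins, read 11.38 against 11.79 (-0.41), while ADAM10, the other main L1CAM sheddase, read 13.40 against 13.28 (0.12). The gamma-secretase subunits APH1A and APH1B differed in opposite directions, at -0.40 and 0.33, and the metalloprotease ADAM9 differed by -0.21.

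The list of EPCAM partners had a median of -0.115 over 12 genes above the filter, with 8 below 0, beside 64.8% of all genes. FHL2, a coactivator that joins the cleaved intracellular part of EPCAM, read 8.11 against 8.73 (-0.62, and -0.55 with centred arrays). ADAM17, which also cleaves EPCAM, stood in this list too. ELF3, an epithelial transcription factor, differed by -0.26 and SPINT2, a protease inhibitor, by 0.24. The claudin CLDN7, which forms a complex with EPCAM, read 8.80 against 8.86.

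Of 42 further immunoglobulin-family adhesion genes measured, 18 were above the filter, and none of these was 1.5-fold lower or higher. Their median was 0.02, with 8 below 0 and 9 above. PVR, a nectin-like receptor, had the largest difference at 10.73 against 11.26 (-0.53), followed by the junction molecule NECTIN1 (-0.35) and CLMP (-0.34). BCAM, a laminin receptor, differed by 0.24. In the NCAM1 signalling list 5 of 8 were above the filter, with a median of -0.14, FGFR2 at 0.08, FGFR1 at -0.30, the focal adhesion kinase PTK2 at -0.17, FYN at -0.14 and GFRA1, the GDNF receptor that can signal through NCAM1, at -0.09. The polysialyltransferases ST8SIA2 and ST8SIA4 were below the filter. Among leukocyte partners of ICAM1 and ALCAM 1 of 7 passed, ITGAX at 5.48 against 5.57, and ITGAX and GFRA1 changed sign to 0.01 after loess. FYN (5.54 against 5.68), GFRA1 (5.48 against 5.57) and ITGAX passed the filter only on the control array. The filter thus fixed their negative signs as deposited, and the NCAM1 list median of -0.14 is the value of FYN.

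**Figure D4:**
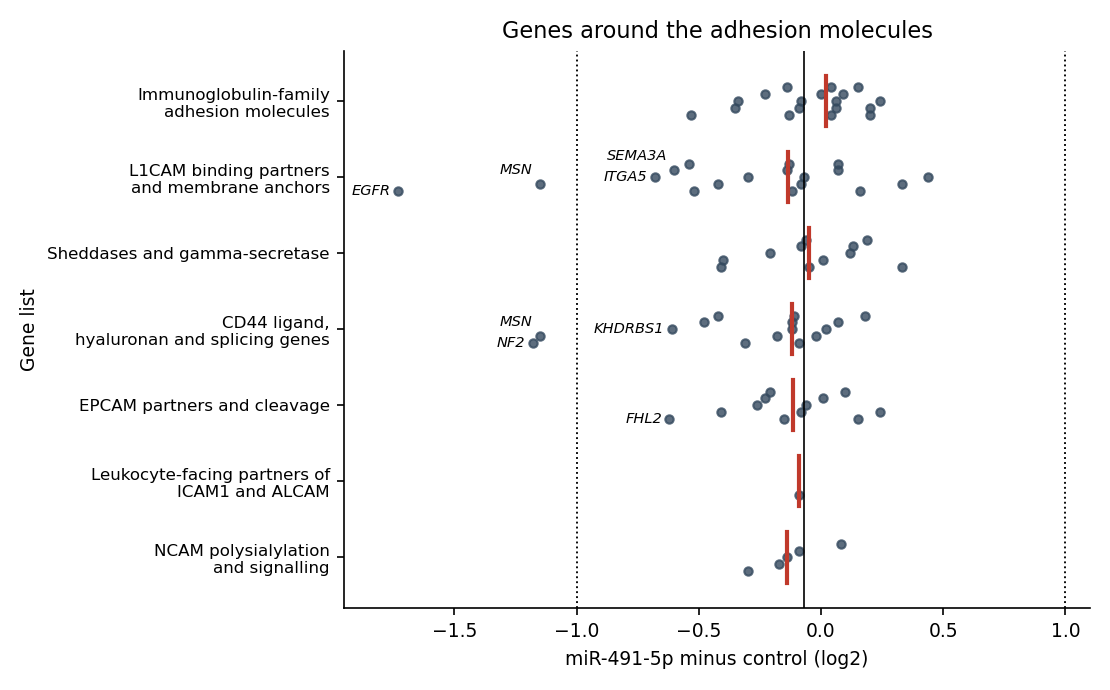
Difference between the arrays (x axis, miR-491-5p minus control, log2) of the genes above the filter in each of 7 lists (y axis), with a point for each gene, a red bar at the list's median, dotted lines at 2-fold and a solid line at the median of all genes. The named genes are those at least 1.5-fold lower. List medians lie between -0.14 and 0.02, and EGFR, NF2 and MSN are the points past the lower 2-fold line.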

How the data were processed

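The authors deposited log2 signals per probe set for 2 arrays, 1 per group, produced by RMA according to the submitters' processing notes. The version, settings and genome build were not given in the sources used here. The log base is taken from RMA. Of 67528 probe sets, 23781 carried 1 gene symbol in the platform annotation, 1543 several (left out) and 42204 none here; 21497 of the 23781 matched RefSeq by Entrez ID, including all 10 adhesion genes. Differences were taken as deposited. Of each list, the 4 genes above the filter with the largest differences, ties included, were named. Outside this rule, and with the values known, ADAM10, CLDN7, HAS2, HAS3, FGFR2, ST8SIA2 and ST8SIA4 were also named. The same holds for the other anchors and receptors of the L1CAM list. The planned naming of the 3 genes nearest to L1CAM by their 2 values was dropped, because it compares levels of different probes. The members and lists were chosen with earlier results of these data known. Alternatives were median centring, loess (span 0.3), no filter, both arrays above the filter, mean probe sets, and 1.5-fold and 3-fold sizes. Nothing was tested between groups. The number of arrays limits the precision. The counting was tested on simulated data. Python 3.11.15, numpy 2.4.6, pandas 2.3.3, statsmodels 0.14.6 and matplotlib 3.10.9 were used.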

Additional observations from a re-analysis of the deposited data

How the results depend on the processing

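No paired analysis was possible because the groups had a single array each, and for the same reason leaving out a replicate was not possible. The L1CAM difference of -1.40 was -1.33 with median centring and -1.32 after loess. The other alternatives could not move it, because a filter leaves a gene's own difference unchanged and L1CAM has 1 probe set. Median centring raised all 10 members' differences by 0.07 and loess by 0.06 to 0.11, which turned the small negative values of MCAM and ICAM1 positive. The mean of both CD44 probe sets differed by -0.79. At least 1.5-fold lower were 7 genes of the wider lists as deposited, 4 with median centring and 4 after loess. Of 190 comparisons of counts, 186 stayed within 1.5 times, and the other 4 were these and the list of EPCAM partners, where 0 replaced 1 (FHL2) under both scalings. Most of the 190 compared a count of 0 with another 0, which was scored as unchanged, so the 186 say little about stability. At 3-fold, 0 members were lower or higher. Over all genes, 109 were at least 2-fold lower as deposited, 81 after centring and 76 after loess, while 7, 13 and 13 were at least 2-fold higher. Signal over background is unknown, which limits CHL1, NFASC, ICAM1 and MCAM most.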
